A study of Mus musculus with 16 samples.

Results

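The genes described here encode the proteins of the cytosolic ribosome. They are the protein-coding genes of the deposited mouse count table whose symbols follow the Rps and Rpl scheme, the P stalk genes Rplp0, Rplp1 and Rplp2 included. The rule found 75 of 55401 genes, of which 29 belong to the small subunit and 46 to the large subunit. They lie on 19 chromosomes, and 4 of them are on X. All 75 had enough counts to be tested, among 17292 genes that did. The symbol rule fixed the membership and uses no measured value, although the family itself was taken up with earlier results of these data known.

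The livers came from wild-type mice, with RNA extracted in TRIzol and depleted of ribosomal RNA. The control group had no treatment, the TAA group had drunk thioacetamide at 300 mg/L for 8 weeks, and this liver toxicant was used to induce fibrosis. The other 6 groups had the same 8 weeks of TAA, then 1, 2 or 4 weeks of recovery, either without choline or with choline chloride at 3.5 g/L in the drinking water. Each of the 8 groups had 2 libraries. The labels give no strain, sex or age. They also do not say whether a group's 2 libraries are from different mice, so a p-value here reflects the spread between libraries, which may be technical.

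A eukaryotic ribosome joins a small subunit, which reads the mRNA, to a large subunit, which forms the peptide bond, and each protein is present in a single copy except those of the P stalk. Ribosomal protein mRNAs start with a run of pyrimidines, the 5′ terminal oligopyrimidine or TOP motif, through which the mTORC1 kinase and the RNA-binding protein LARP1 control their translation and stability together. In the liver, which exports much of its protein output to the blood, ribosome number follows feeding, growth and regeneration.

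The sequences around the annotated start sites show how far that shared feature is present in these genes. RefSeq promoter entries (GRCm38.p6) matched 55 of the 75 genes, and the search looked for unbroken runs of C or T on the coding strand within 20 bases either side of the start. A run of at least 8 bases was found in 28 of 55 genes (50.9%), compared with 18.4% of 27025 genes with an entry. A run of at least 10 bases was found in 40% of them and in 8.61% of all genes. The same run on the other strand, of A or G and at least 8 bases long, was found in 9.09% of them and in 20.2% of all genes. The windows below belong to the 8 genes with an entry among the 10 whose mRNAs were lower at 4 weeks of recovery than in TAA, and to Rpl37a, the gene called between TAA and control. Each holds 15 bases before and 15 bases from the annotated start, read 5′ to 3′ on the gene's strand, with its longest run of C or T in capitals.
Rpl27a, chr7:109519180-109519209, plus strand: gacttcgtgagCTCCTCCCTTTTCCCTTTC
Rpl35, chr2:39005117-39005146, minus strand: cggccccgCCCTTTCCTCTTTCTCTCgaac
Rplp2, chr7:141447636-141447665, plus strand: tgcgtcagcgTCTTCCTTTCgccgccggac
Rps26, chr10:128626492-128626521, minus strand: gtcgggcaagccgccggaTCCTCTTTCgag
Rpl12, chr2:32961697-32961726, plus strand: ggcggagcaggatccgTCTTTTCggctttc
Rps12, chr10:23787195-23787224, minus strand: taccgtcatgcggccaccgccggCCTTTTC
Rps2, chr17:24720048-24720077, plus strand: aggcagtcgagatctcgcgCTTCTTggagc
Rpl41, chr10:128549154-128549183, minus strand: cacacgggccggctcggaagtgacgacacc
Rpl37a, chr1:72711245-72711274, plus strand: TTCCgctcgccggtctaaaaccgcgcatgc
The runs in these windows ranged from 19 bases in Rpl27a and 18 in Rpl35 to 3 in Rpl41, where none is set in capitals. The genes that changed thus include some with a long run and some without one at this annotated start. Annotated starts can lie some bases away from the starts used in liver, so a short run says only that these letters are not in this window.

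In every library the 75 mRNAs were abundant, and their order changed little. Levels can be compared between genes only per length, here as TPM, a length-scaled abundance, rescaled to the protein-coding genes. The median gene had a mean of 442.6 TPM over the 8 groups, the quartiles were 303.1 and 565.9 TPM, and 74 of 75 exceeded 100 TPM. Rpl41, which encodes the shortest of these proteins, was highest in every library, with a mean of 1517 TPM and a range of 1144 to 2544 TPM. Rplp1, of the P stalk that recruits the translation GTPases, came second at 1239 TPM. Rpl5, whose protein enters the ribosome together with Rpl11 and the 5S RNA, was lowest, 18.67-fold below Rpl41. TPM divides by the annotated transcript length, so the place of very short mRNAs such as Rpl41 depends on the annotation. The large-subunit and small-subunit genes were mixed throughout the order.

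**Figure D1:**
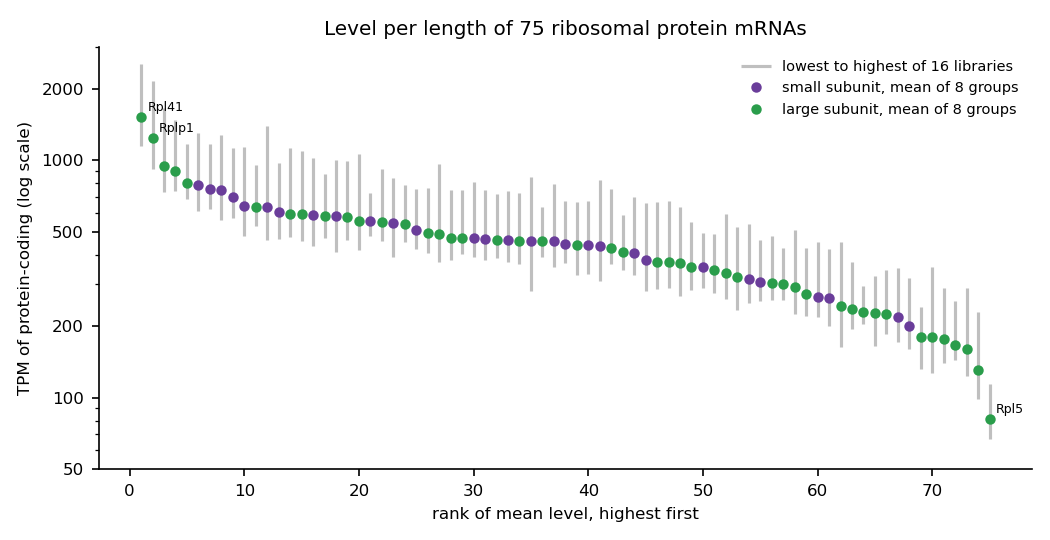
Level per length of the 75 ribosomal protein mRNAs, as TPM of protein-coding genes on a log scale, against the rank of the mean over the 8 groups. Points are means (purple small subunit, green large subunit) and bars run from the lowest to the highest of 16 libraries; Rpl41 stands highest at 1517 TPM.

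The 75 genes moved as a block between libraries. Their geometric mean, in CPM, counts relative to library size, scaled by edgeR's TMM factors, was 245.5 CPM in control replicate 1 and 103.7 CPM in control replicate 2. In TAA it was 149.0 CPM in replicate 1 and 114.0 CPM in replicate 2. In all 12 recovery libraries it was lower or about the same as in control replicate 2, from 81.12 CPM in a 4-week library without choline to 104.1 CPM in a 4-week library with choline. Both TAA libraries thus lay above all 12 recovery libraries, and the control pair straddled the TAA pair. As a share of all counts the genes took 1.437% and 0.8087% in control, 1.488% and 1.212% in TAA, and 0.7256% to 0.8561% in recovery. The 95% Wilson interval of each share reached at most 0.0042 percentage points to either side, which covers counting error only. On this unscaled measure TAA replicate 1 was the highest library, and both TAA libraries lay above control replicate 2. The top place depended on the denominator. As a share of protein-coding counts control replicate 1 was highest, at 1.83% against 1.673% in TAA replicate 1. By protein-coding TPM the order was the reverse, at 4.833% and 5.46%. The non-coding 7SL RNA took 15.88% of all counts in control replicate 1 and 5.823% in TAA replicate 1, and its part was not tested.

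The block was tight, so counts of genes that go the same way are not counts of independent results. The SD over 16 libraries of the mean log2 level of the 75 genes was 0.389, whereas the level of a gene relative to that mean had a median SD of 0.118. Rps24 kept closest to the block, with an SD of 0.043, and Rpl30, whose yeast counterpart binds and regulates its own transcript, strayed most at 0.230. Control replicate 1 was the highest library for 75 of 75 genes, and TAA replicate 1 the second highest for 71. The lowest group mean was that of 4 weeks without choline for 53 genes.

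**Figure D2:**
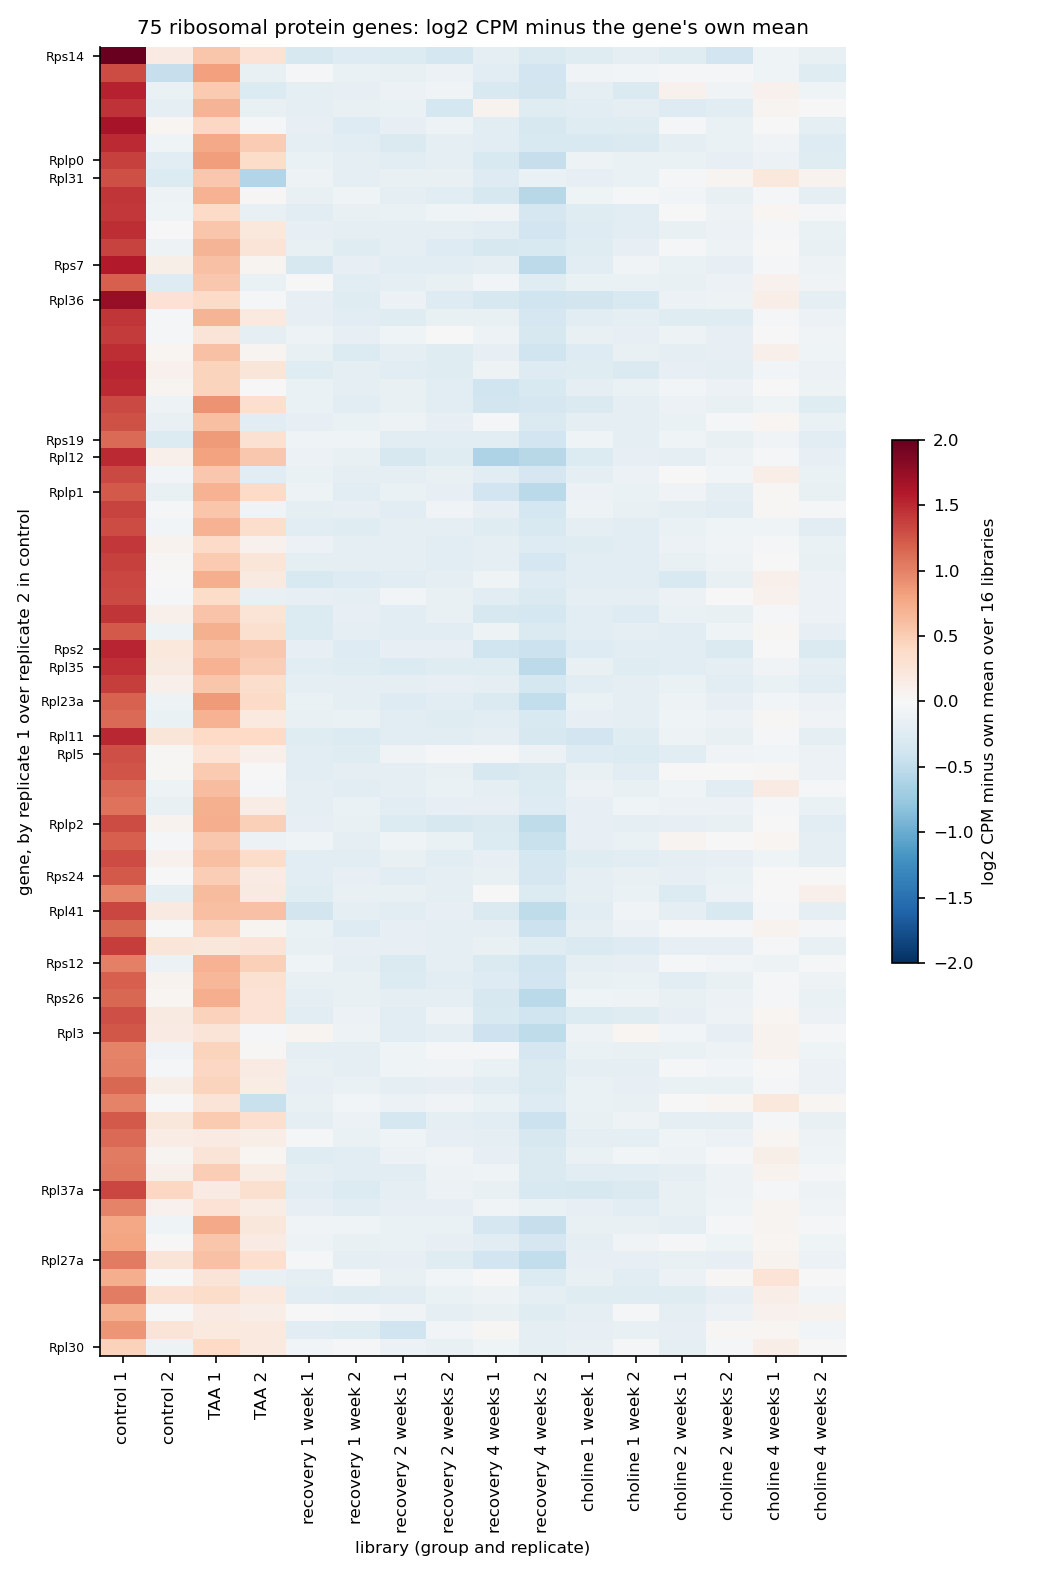
Log2 CPM of each of the 75 genes minus its own mean, by library, with genes ordered by the ratio of control replicate 1 to replicate 2 (red higher, blue lower); some of the genes named in the text are labelled. Control replicate 1 is red for every gene, TAA replicate 1 is the next highest column for 71 genes, and the 12 recovery columns are pale.

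Control replicate 1 and TAA replicate 1 also stood apart in nuclear RNA. The nuclear long noncoding RNA Malat1 stood at 146.0 CPM in the first of them and at 1019 CPM in the second, while the remaining 14 libraries held 5230 to 6799 CPM. Neat1, which builds nuclear paraspeckles, stood at 36.85 and 106.7 CPM in this pair and at 1962 to 15220 CPM elsewhere. Its highest levels were those of the 4-week libraries without choline, at 15220 and 13770 CPM. The ribosomal protein genes were 2.367-fold higher in control replicate 1 than in replicate 2, and 1.306-fold higher in TAA replicate 1 than in replicate 2. The median log2 ratio of replicate 1 to replicate 2 over the 75 genes was 1.27 in control, from 0.57 for Rpl30 to 1.81 for Rps14, while the median over all genes tested was -0.03. The 2 libraries of each recovery group differed less, with medians between -0.02 and 0.13. Some other lists shared the gap between the controls and others did not. The median was 0.97 over 78 mitochondrial ribosomal protein genes and 0.86 over 16 translation factor genes, 0.38 over 10 hepatocyte markers and 0.34 over 30 ribosome biogenesis genes. It was 0.03 over 8 sinusoidal endothelial markers, -0.26 over 15 genes for Myc and mTORC1 signalling and -1.19 over 5 proliferation genes, and 9.37% of all genes at least doubled. The part of nuclear RNA in the results was not tested, and the main counts for TAA and recovery are repeated with this pair of libraries left out.

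**Figure D3:**
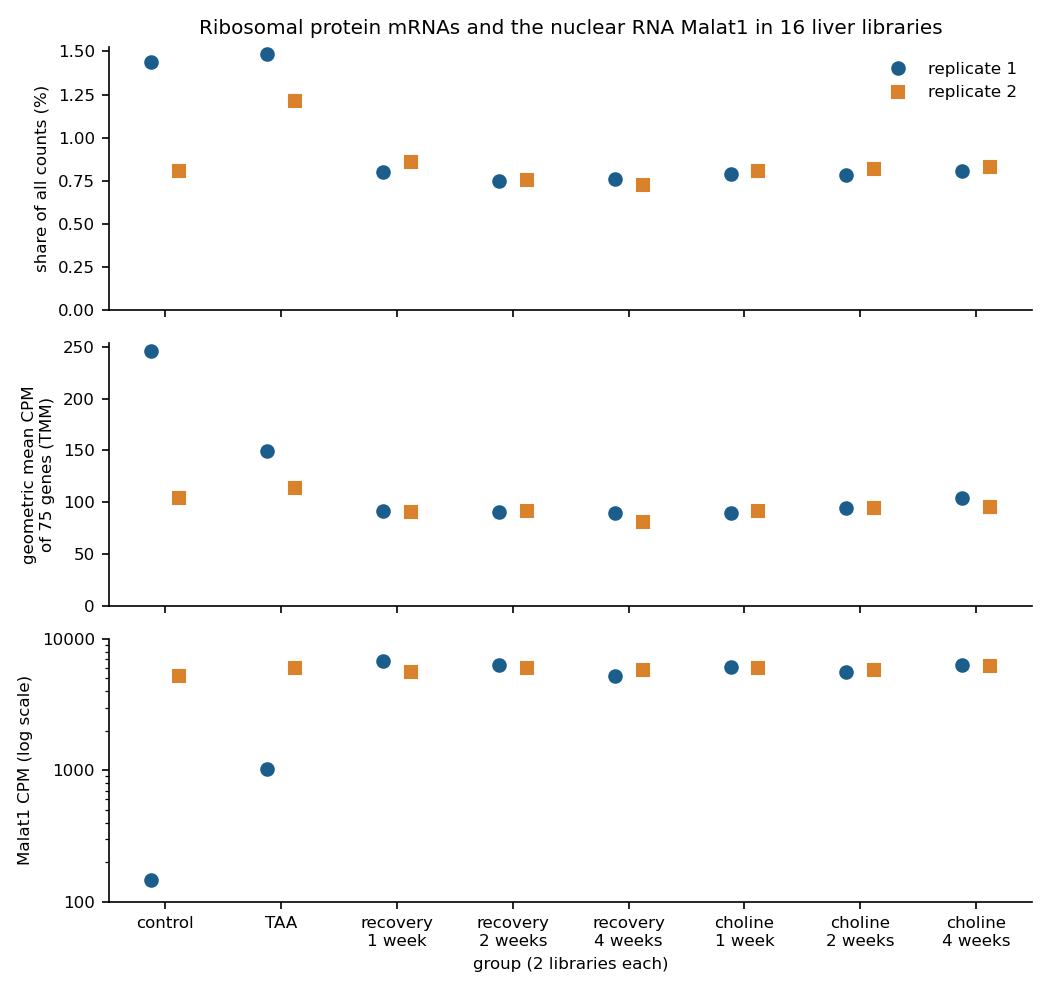
Share of all counts taken by the 75 genes, their geometric mean CPM, and Malat1 CPM on a log scale, for each of 16 libraries (circles replicate 1, squares replicate 2). Control replicate 1 and TAA replicate 1 combine the highest CPM of the 75 genes with the lowest Malat1, 146.0 and 1019 CPM.

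Between TAA and control, 1 of the 75 genes passed the test, and the direction of the block rested on 1 control library. Rpl37a, a zinc-finger protein of the large subunit, was at 120.6 and 134.6 CPM in TAA and at 270.8 and 142.7 CPM in control. Both TAA values lay below both control values, by a small margin for the second control. It was lower in TAA by a log2 change of -0.70 ± 0.23 (SE, adjusted p = 0.0493 by edgeR's quasi-likelihood test with Benjamini-Hochberg adjustment over all genes). Over all genes tested 11.0% were called lower and 10% higher, so 1 of 75 is below the background. The change of Rpl37a was -0.09 without both libraries low in Malat1 (adjusted p = 0.662 by edgeR). Rpl36 was at 85.06 and 63.92 CPM in TAA against 217.4 and 79.55 CPM, and its change of -0.99 ± 0.34 did not pass (adjusted p = 0.0554 by edgeR). The median log2 change of the 75 genes was -0.42, compared with 0.03 for all genes.

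The P stalk genes show how the controls split the comparison. Rplp0, which anchors the stalk to the large subunit, was at 549.7 and 397.8 CPM in TAA and at 793.4 and 266.1 CPM in control. The TAA pair therefore lay between the controls, and the same held for Rplp1, at 337.4 and 269.7 CPM against 486.5 and 187.7 CPM. Without control replicate 1, 16 of the 75 genes were called higher in TAA and none lower (background 8.32% higher), with a median of 0.32. Without control replicate 2, 73 were called lower (background 21.7%), with a median of -0.89. Without both libraries low in Malat1, which leaves 1 library in each of these groups, whose spread is then assumed to be that of the other groups, 9 were called higher and 1 lower (background 6.4% and 8.73%), with a median of 0.12. Among the 9 were Rpl12, Rplp0, Rplp1 and Rps19. With library totals in place of TMM factors the median of all genes moved to 0.59 and that of the 75 genes to 0.24, which is still below all genes, and 7 were called higher (background 32.7%). The data therefore give no single direction for TAA against control.

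Against TAA, the ribosomal protein mRNAs stood lower at every recovery time, and the test called 10 of them at 4 weeks. Without choline, all 75 changes were negative at 1, 2 and 4 weeks, with medians of -0.53, -0.55 and -0.60, which is 1.443-, 1.463- and 1.519-fold lower. These 3 comparisons share the TAA libraries, so they are not independent of each other. At 1 and 2 weeks edgeR called 0 of 75, where 1.78% and 5.88% of all genes were called lower. At an unadjusted p under 0.05 there were 25 and 24 of the 75. These shares, at adjusted p, are no background for that easier threshold. At 4 weeks it called 10 lower (13.3%) against a background of 8.39%. DESeq2 called 1, 4 and 16 lower at the 3 times (background 4.09%, 7.49% and 9.34%). The 2 libraries of a recovery group lay below both TAA libraries for 64, 63 and 67 of the 75 genes, compared with 27.6%, 32.6% and 31.1% of all genes. As the genes moved together, these are not counts of independent results.

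Rpl12 (chr2:32961559-32964496, plus strand, GRCm38), which forms the base of the P stalk with Rplp0, had the largest of these changes. It was at 156.2 and 131.3 CPM in TAA, 82.61 and 80.68 CPM at 1 week, 71.66 and 75.8 CPM at 2 weeks, and 58.81 and 61.35 CPM at 4 weeks. The groups did not overlap, and each later group lay below the one before it. At 4 weeks it was lower than in TAA by a log2 change of -1.26 ± 0.32 (adjusted p = 0.0211 by edgeR). Without both libraries low in Malat1, which leaves 1 TAA library, the change was -1.13. Rplp2, the partner of Rplp1 in the stalk, was at 122 and 103.2 CPM in TAA and 60.18 and 52.14 CPM at 4 weeks (log2 change -1.004 ± 0.29, adjusted p = 0.0373 by edgeR). Rpl23a, at the exit of the peptide tunnel where the signal recognition particle docks, was at 196.7 and 143.3 CPM in TAA and 89.17 and 77.73 CPM at 4 weeks. It was lower by -1.03 ± 0.31 on the log2 scale (adjusted p = 0.0428 by edgeR). Rps2, which lines the mRNA channel of the small subunit, was at 466.6 and 443.8 CPM in TAA and 232.1 and 226.5 CPM at 4 weeks (log2 change -0.99 ± 0.30, adjusted p = 0.0479 by edgeR). Rpl41 was at 332.7 and 332.1 CPM in TAA and 181.1 and 154.9 CPM at 4 weeks, lower by -0.98 ± 0.28 (adjusted p = 0.0356 by edgeR). In each of these 5 genes both TAA libraries were above both 4-week libraries. The log2 changes of Rplp2, Rpl23a, Rps2 and Rpl41 at 4 weeks, without both libraries low in Malat1, were -0.88, -0.78, -0.95 and -0.98. The other 5 called at 4 weeks were Rpl21, Rpl27a, Rpl35, Rps12 and Rps26. The smallest p-values at 1 week were those of Rpl41, Rpl35 and Rpl27a, of which Rpl41 had a change of -0.86 ± 0.28 (adjusted p = 0.115 by edgeR). At 2 weeks they were those of Rpl27a, Rps12 and Rplp2, with adjusted p from 0.0610 to 0.0656 by edgeR.

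This difference from TAA was also present in the TAA library that was not low in Malat1. Fits without TAA replicate 1, alone or together with control replicate 1, have 1 TAA library. Their counts take in no spread within TAA. TAA replicate 2 alone was above all 12 recovery libraries for 51 of the 75 genes, compared with 23.2% of all genes. Without both libraries low in Malat1, edgeR called 35, 38 and 50 of the 75 genes lower at 1, 2 and 4 weeks (background 5.6%, 10% and 13.3%) and 1, 2 and 1 higher, with medians of -0.34, -0.34 and -0.40. Rpl31, higher in recovery in all 3 of these comparisons, was at 41.45 CPM in TAA replicate 2 and 90.19 CPM in TAA replicate 1, which lie on either side of its recovery libraries, at 51.77 to 72.3 CPM. Without TAA replicate 1 but with both controls, 0 were called at the 3 times, with medians of -0.32, -0.32 and -0.39. Scaled by library totals, 28, 54 and 56 were called lower (background 5.72%, 17.4% and 16.7%).

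**Figure D4:**
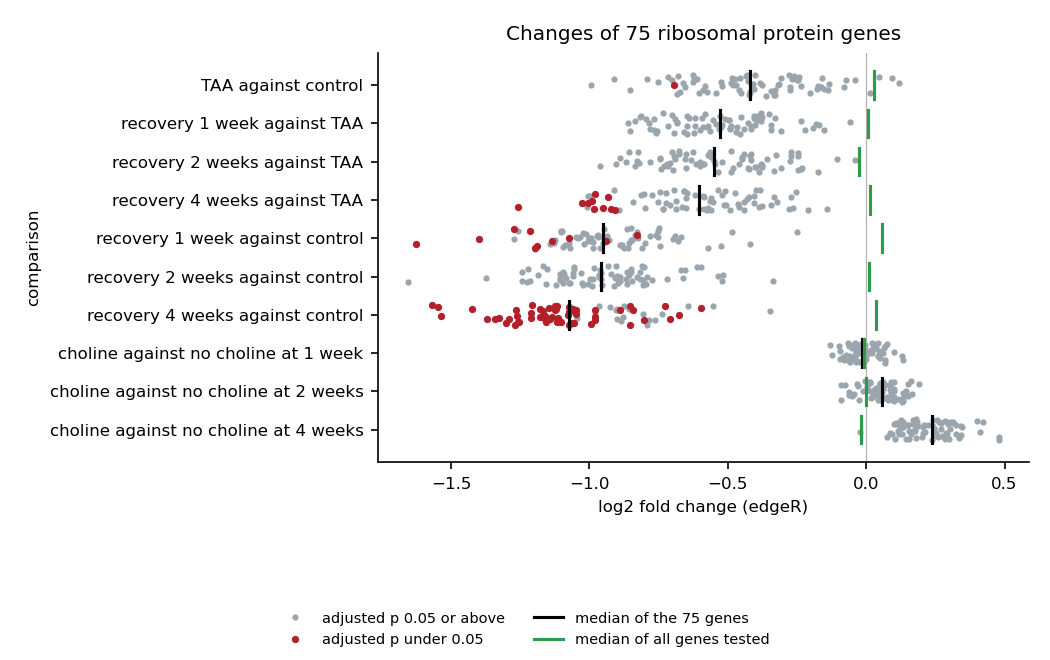
Log2 fold changes (edgeR, TMM factors) of the 75 genes in 10 comparisons; red points have an adjusted p under 0.05, black bars are medians of the 75 genes and green bars medians of all genes tested. All 75 points lie below 0 in the 6 comparisons of recovery with TAA or control; TAA against control (median -0.42) turns to 0.32 without control replicate 1 and to 0.24 with library totals.

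Against untreated livers, the ribosomal protein mRNAs were lower at 4 weeks of recovery for 55 of the genes, and the size of that difference rested on control replicate 1. Without choline, edgeR called 10, 0 and 55 of the 75 genes lower at 1, 2 and 4 weeks, where 2.35%, 0.249% and 12.2% of all genes were called lower. The 55 are 19 small-subunit and 36 large-subunit genes. All 75 changes were negative at each time, with medians of -0.95, -0.96 and -1.07, and the 3 comparisons share the control libraries. At 2 weeks 72 had an unadjusted p under 0.05, an easier threshold for which no share of all genes is given here. DESeq2 called 44 lower at 2 weeks (background 6.22%). Rps14, whose human gene lies in the region deleted in the 5q- syndrome, was at 536 and 153.3 CPM in control and 120.3 and 111.8 CPM at 4 weeks. Both controls lay above both recovery libraries, the second by much less than the first. Its log2 change was -1.57 ± 0.40 (adjusted p = 0.0242 by edgeR). Rpl36 was at 217.4 and 79.55 CPM in control and 52.25 and 49.35 CPM at 4 weeks (log2 change -1.55 ± 0.34, adjusted p = 0.0169 by edgeR). Rpl11, which with Rpl5 binds the p53 regulator Mdm2, was at 337.1 and 140.8 CPM in control and 100.1 and 97.91 CPM at 1 week. It was lower by -1.27 ± 0.29 (adjusted p = 0.0440 by edgeR). Rps7 was at 260.7 and 94.59 CPM in control and 76.98 and 60.42 CPM at 4 weeks (log2 change -1.37 ± 0.35, adjusted p = 0.0251 by edgeR), and 27.08% of the counts of this gene and its pseudogenes lay on pseudogene rows. These changes were smaller without both libraries low in Malat1, which leaves 1 control library. They were -0.41 for Rps14, -0.65 for Rpl36 and -0.47 for Rps7 at 4 weeks and -0.51 for Rpl11 at 1 week. Rpl30, Rpl23, Rpl5 and Rps27a were among the 20 that did not pass.

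Without control replicate 1, 1, 0 and 12 of the 75 genes were called lower at the 3 times (background 0.372%, 0.2% and 3.74%), with medians of -0.20, -0.18 and -0.29. Control replicate 2 was above all 12 recovery libraries for 35 genes, compared with 15.9% of all genes. At 4 weeks, leaving out either library without choline took the count of edgeR calls to 0, and a fit of the compared groups alone also called 0. Without both libraries low in Malat1 the counts lower were 3, 1 and 24 (background 1.04%, 0.582% and 6.94%).

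Choline gave no call in any of the 75 genes with all libraries in the fit, at any time or over the mean of the times. In the same fit 0.0%, 0.0% and 0.052% of all genes were called at 1, 2 and 4 weeks, and 0.0173% over the mean of the times. None of the 75 had an unadjusted p under 0.05 in these comparisons, and DESeq2 also called 0. The median log2 change with choline was -0.01 at 1 week, 0.06 at 2 weeks and 0.24 at 4 weeks, and 25, 63 and 74 of the 75 changes were positive. The typical 95% interval at 4 weeks, by the medians of its bounds, ran from -0.42 to 0.89 in this fit, which does not separate the median change from 0. No gene was called for a choline effect that differed between times (0 of 75 by edgeR, 0 at an unadjusted p under 0.05, background 0.0%).

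At 4 weeks the choline libraries nevertheless lay above the others in most genes. Both choline libraries were above both libraries without choline for 59 of the 75 genes and below for 0, where 20% of all genes were above and 22.9% below. At 2 weeks these counts were 39 and 4 (18.6% and 18.3% of all genes), and at 1 week 11 and 21 (15.3% and 16%). The 75 genes moved together between libraries, so these are not counts of independent results, and genes are not replicates. The geometric mean of the 75 genes at 4 weeks was 89.24 and 81.12 CPM without choline and 104.1 and 95.22 CPM with it. Rpl3, next to the peptidyl transferase centre, was at 101.1 and 93.84 CPM without choline and 141 and 130.8 CPM with choline at 4 weeks. The pairs did not overlap, and the log2 change was 0.48 ± 0.26 (adjusted p = 0.958 by edgeR). Rpl27a was at 57.8 and 53.42 CPM without choline and 78.73 and 69.36 CPM with choline (log2 change 0.41 ± 0.21, adjusted p = 0.917 by edgeR). The 2 libraries low in Malat1 belong to neither of these groups. In a fit without them the log2 change of Rpl3 was again 0.48, with 0.48 for Rpl12 and 0.42 for Rpl21. Control and TAA then add no spread between libraries to the shared estimate on which its p-values rest. The 4-week libraries with and without choline were the same in both fits. The part of the lost spread in the calls of that fit was not tested. Neat1 differed between these groups too, at 15220 and 13770 CPM without choline and 2640 and 10340 CPM with it, and its part in the result was not tested. As a share of all counts, the genes took 0.7597% and 0.7256% without choline and 0.8036% and 0.8306% with it, a ratio of 1.1 between the means.

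Single genes seldom left the block. When each library was scaled on the 75 genes themselves, so that only unequal change remained, in a fit run with all libraries, 1 gene passed in 1 comparison. Rpl12 was lower at 4 weeks of recovery than in TAA relative to the other ribosomal protein genes, by -0.65 ± 0.16 on the log2 scale (adjusted p = 0.0234 by edgeR). Relative to the 75, its log2 level was 0.07 and 0.20 in TAA, -0.15 and -0.17 at 1 week, -0.34 and -0.27 at 2 weeks and -0.60 and -0.40 at 4 weeks. With choline it was -0.25 in both libraries at 4 weeks, between the 2-week and 1-week values. Rpl36 was lower relative to the others in TAA than in control (-0.54 ± 0.16) and did not pass (adjusted p = 0.0679 by edgeR). Rps14 and Rpl30 departed mainly in control replicate 1, Rps14 upward to a relative level of 1.13 and Rpl30 downward to -1.39. Over the 8 groups as a whole, edgeR called 11 of the 75 genes on the common scale, close to the background of 11.6% of all genes. The smallest p-values were those of Rpl37a (adjusted p = 0.0232) and Rpl27a (adjusted p = 0.0274), by edgeR.

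**Figure D5:**
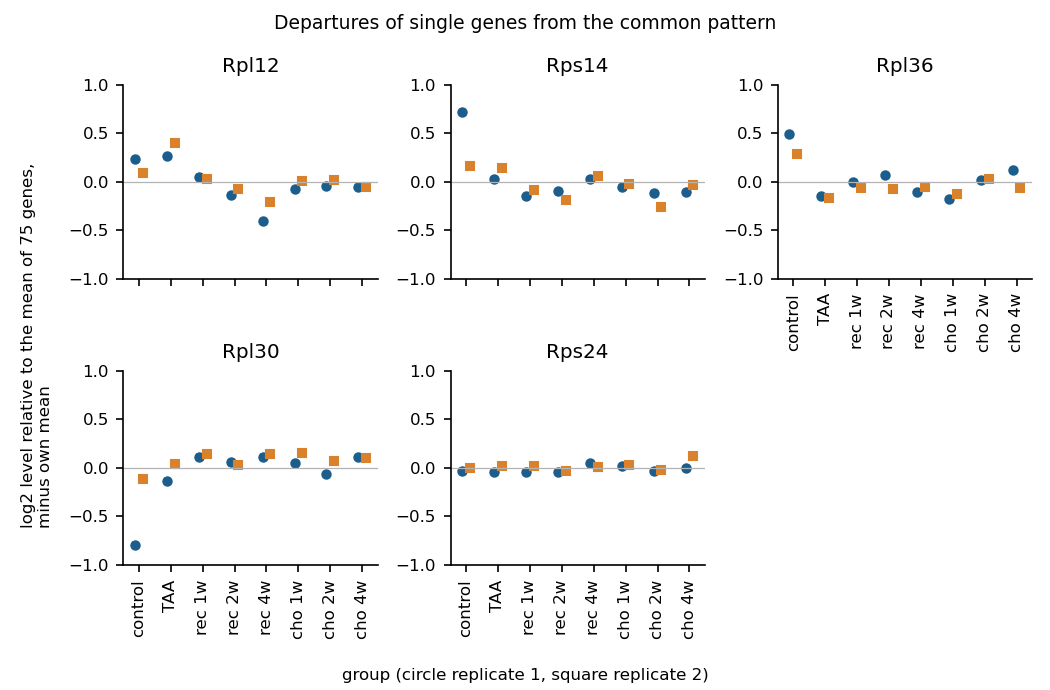
Log2 level of 5 genes relative to the mean of the 75 genes, minus the gene's own mean, by group (circles replicate 1, squares replicate 2). Rpl12 steps down from TAA to 4 weeks of recovery without choline, Rps14 and Rpl30 depart in control replicate 1, and Rps24 stays near 0.

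Other genes of cytosolic and mitochondrial ribosomes were set beside the 75. Of 5 cytosolic ribosomal protein genes that the symbol rule misses, among them Rpsa and Rack1, 1 was called lower at 4 weeks than in TAA and 5 were called lower than in control (background 8.39% and 12.2%), and without both libraries low in Malat1 these counts were 3 and 3 (background 13.3% and 6.94%). Rpsa, a small-subunit protein also known as the laminin receptor precursor, was at 525.9 and 476.9 CPM in TAA and 209.1 and 199.3 CPM at 4 weeks. It was lower by -1.30 ± 0.30 (adjusted p = 0.0145 by edgeR), a change as large as that of Rpl12. Of 5 tested paralogs (8 listed), 4 were lower at 4 weeks than in control and 0 against TAA, and without both libraries low in Malat1 both counts were 0. Of 78 mitochondrial ribosomal protein genes, 10 were lower in TAA than in control, 10 were lower at 4 weeks than in TAA and 58 were lower at 4 weeks than in control (background 11.0%, 8.39% and 12.2%). The first 2 of these counts are near the background. With that pair of libraries left out they were 1, 31 and 20 (background 8.73%, 13.3% and 6.94%), and the median of the 78 between TAA and control went from -0.47 to 0.02.

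Among genes that build ribosomes, more were called higher in TAA than over all genes, and the direction did not turn without the libraries that stood apart. Of 30 ribosome biogenesis genes, 10 were higher and 1 lower in TAA than in control (background 10% and 11.0%), with a median of 0.43. Against TAA, 6, 20 and 21 of the 30 were lower at 1, 2 and 4 weeks (background 1.78%, 5.88% and 8.39%), with a median of -0.86 at 4 weeks. Ncl, which encodes nucleolin, was at 237.8 and 207.9 CPM in TAA, 87.64 and 124 CPM in control and 123.3 and 111.5 CPM at 4 weeks. Both TAA libraries were above both libraries of the other groups, and Ncl rose in TAA by 1.07 ± 0.17 (adjusted p = 0.00136 by edgeR). Mybbp1a, a nucleolar protein of rRNA production, rose by 1.20 ± 0.15 (adjusted p = 4.31e-04 by edgeR), and Nop16 was the 1 lower (-0.73 ± 0.23, adjusted p = 0.0458 by edgeR). Without both libraries low in Malat1, 14 of the 30 were higher in TAA than in control and 1 was lower (background 6.4% and 8.73%), and 20 were lower at 4 weeks than in TAA (background 13.3%). The median between TAA and control was 0.43 and 0.61 over the 30 in these fits, and -0.42 and 0.12 over the 75 ribosomal protein genes. The difference between the lists was not tested. Of 6 host genes of small nucleolar RNAs, whose transcripts also begin with a TOP motif, 3 were higher in TAA, among them Snhg1 (1.78 ± 0.24, adjusted p = 7.47e-04 by edgeR).

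Of 16 translation factors and related genes with TOP mRNAs, 1 was called between TAA and control, below the background of 10% higher and 11.0% lower. That gene was Hnrnpa1, a nuclear RNA-binding protein, which rose by 1.28 ± 0.20 (adjusted p = 0.00157 by edgeR). Against TAA, 1, 2 and 1 of the 16 were lower at 1, 2 and 4 weeks (background 1.78%, 5.88% and 8.39%), and 6 were lower at 4 weeks than in control (background 12.2%). In the fit without both libraries low in Malat1, 7 were lower at 4 weeks than in TAA and 0 than in control (background 13.3% and 6.94%). Eef1a1, which delivers aminoacyl-tRNA to the ribosome, was at 3729 and 2835 CPM in TAA and 2991 and 2732 CPM at 4 weeks, a change of -0.20 ± 0.30 (adjusted p = 0.687 by edgeR). Of 15 genes for Myc and mTORC1 signalling, the stress gene Sesn2 rose in TAA (1.15 ± 0.24, adjusted p = 0.00665 by edgeR), and Myc itself did not pass (0.17 ± 0.98, adjusted p = 0.927 by edgeR), with 2.286 CPM in control replicate 1 and 44.94 CPM in replicate 2.

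The 10 hepatocyte marker genes were detected in every library, as the liver label requires, and summed to between 71190 and 110700 CPM. Of these, 5 were called lower and 0 higher in TAA than in control, with a median log2 change of -0.77, and of 8 sinusoidal endothelial markers 6 were lower and 0 higher, with a median of -0.62 (background 11.0% lower). The counts lower were 4 and 6 without both libraries low in Malat1, and 1 endothelial marker was higher. Some of the other marker lists were higher in TAA and others were not. Summed over the list, 5 proliferation genes lay at 98.81 to 125.5 CPM in TAA, at 40.01 to 42.72 CPM in control and at 26.85 to 63.4 CPM in recovery without choline. Stellate and myofibroblast markers (9 genes) lay at 534.1 to 815.9 CPM in TAA, 160.8 to 252.2 CPM in control and 266.3 to 598.4 CPM in recovery without choline. Cholangiocyte markers (8 genes) lay at 110.7 to 433.0 CPM in TAA and 42.4 to 45.72 CPM in control. Sums of monocyte-derived macrophage and neutrophil markers were also higher in TAA than in control. Erythroid markers (5 genes) were lower, at 285.0 to 329.7 CPM in TAA against 466.1 to 807.5 CPM in control. The sum of the B and plasma cell markers (7 genes) was lower too, at 8.79 to 10.27 CPM against 12.32 to 17.5 CPM. Most single genes of that list went the other way. Of 6 tested, 5 had a positive log2 change, with a median of 0.83, and 1 was called lower. The sums of Kupffer cell and T cell markers overlapped between TAA and control. Their part in the levels of the 75 genes was not tested. In bulk tissue, fewer cells of a type and less RNA per cell cannot be told apart.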

How the data were processed

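Expected counts and TPM per gene were deposited by the authors in one table each for 16 libraries. The submitters' processing notes name STAR 2.7.10b, RSEM 1.3.3, DESeq2 1.36.0 and GRCm38, without saying which step used which. Per the labels' protocols, the libraries were made with a directional kit after rRNA depletion. No source used here says how reads shared with pseudogenes were divided. Of the deposited expected counts of the 75 genes, 95.8% have a fractional part, against 8.7% over the whole table, and pseudogenes held 4.0 to 4.9% of the joint counts. Each deposited file also has 2 columns that match no sample and were not used. Library totals ranged from 23.1 to 33.6 Mcounts (1 Mcount is 1e6 counts). Deposited TPM values were rescaled to the same sum, 1e6, over protein-coding genes in every library.

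Expected counts were rounded and tested with edgeR 4.0.16 (R 4.3.3) in one quasi-likelihood fit of the 8 groups, with filterByExpr, TMM factors, robust dispersion, 8 residual degrees of freedom and Benjamini-Hochberg adjustment over 17292 genes at 0.05. The fit was tested on simulated data. Alternatives were DESeq2 1.42.0, other scalings and filters, pseudogene counts added to their parent genes, the compared groups alone, a replicate block and leaving out libraries. Library totals, scaling on the 75 genes and crossed replicate numbers were added after seeing the data. Named genes are those of a fixed list and those with the smallest p or, where called, the largest change in each comparison. The members and the gene lists were chosen with earlier results of these data known. Results for some single genes are not reported here.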

Additional observations from a re-analysis of the deposited data

How the results depend on the processing

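With TMM factors, the 75 genes called numbered 1 for TAA against control, 0, 0 and 10 for recovery at 1, 2 and 4 weeks against TAA, 10, 0 and 55 against control, 0 for each choline comparison and 11 for any difference among the 8 groups. For TAA against control the count was 2 with DESeq2 size factors, 2 with scaling on protein-coding genes outside the 75, 7 with library totals, 0 with scaling on the 75, 14 without a filter, 0 in the compared groups alone, 4 with the DESeq2 test and 10 without both libraries low in Malat1. For recovery against TAA, in the order 1, 2 and 4 weeks, it was 28, 54 and 56 with library totals, 19, 28 and 37 without a filter, 1, 4 and 16 with the DESeq2 test, and 36, 40 and 51 without both libraries low in Malat1. In the compared groups alone it was 13 at 2 weeks and 21 at 4 weeks, and with scaling on the 75 it was 1 at 4 weeks. For recovery against control it was 1, 0 and 21 with library totals, 70, 68 and 73 without a filter, 58, 44 and 67 with the DESeq2 test, and 3, 1 and 24 without both libraries low in Malat1. At 1 week it was also 16 with scaling on protein-coding genes outside the 75, 0 in the compared groups alone and 0 with scaling on the 75, and at 4 weeks it was 0 in each of these last 2 fits. Choline at 4 weeks had 3 without both libraries low in Malat1. Any difference among groups gave 30 with library totals, 0 with scaling on the 75, 70 without a filter, 52 with the DESeq2 test and 35 without both libraries low in Malat1. Shares over all genes moved with the setting as well. With library totals 32.7% of all genes were called higher in TAA than in control, against 10% with TMM factors. At 4 weeks against TAA, 16.7% were called lower with library totals and 9.34% with the DESeq2 test, against 8.39%. A larger count, here or on leaving out libraries, is therefore not by itself a result about the 75 genes. The causes of these moves were not tested. The fit without both libraries low in Malat1 has 1 control and 1 TAA library, so its counts take in no spread within either group.

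Leaving out 1 library at a time gave 0 to 73 genes for TAA against control, 0 to 53, 0 to 54 and 0 to 62 for recovery against TAA, 0 to 75 for each recovery time against control, 0 to 0 for each choline comparison and 0 to 75 for any difference among groups. Over these fits the log2 change between TAA and control took both signs for 67 of the 75 genes: 4 were positive with all libraries, 67 without control replicate 1, 0 without control replicate 2 and 53 without both libraries low in Malat1. The 8 genes given next are those among the named genes whose change took the other sign in an alternative that called it. Over the fits that each leave out 1 library, the log2 change ran from -0.862 to 0.722 for Rpl13a, -0.751 to 0.824 for Rplp0, -0.687 to 0.686 for Rplp1, -0.7 to 0.532 for Rplp2, -0.701 to 0.624 for Rps27a and -0.531 to 0.874 for Rps19, with the positive ends without control replicate 1 and the negative ends without control replicate 2. Without both libraries low in Malat1 it was 0.597 for Rpl13a, 0.575 for Rplp0 and 0.518 for Rplp1, and with library totals 0.377 for Rpl22 and 0.555 for Rpl4.

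The deviations of same-numbered samples correlated at -0.206 to 0.587 between groups, and 8 of 28 pairs of groups were over 0.1, the highest being control and TAA. As not every pair was, the numbers were not taken to pair the samples. With the replicate block the counts were 1 for TAA against control, 0, 2 and 11 for recovery against TAA, 21, 0 and 60 against control, 0 for choline and 11 for any difference, and with crossed numbers, for recovery at 1 week against TAA, 0. Over single genes, medians over the 75 and shares, 2593 values under alternatives kept their direction and side of the threshold, 305 lost the call, 167 gained one, 72 moved without a call and 11 turned. Every gene of the 75 had at least 536.5 counts in every library.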
